A study of Arabidopsis thaliana with 15 samples.

Results

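Ribosome assembly factors are the proteins that cut, modify and fold ribosomal RNA in the nucleolus and join it to ribosomal proteins. They were followed here in Arabidopsis thaliana Col-0 roots treated to form lateral roots. Members were chosen by locus tag: 42 genes of the snoRNP cores, nucleolins, the Pescadillo complex, the small subunit processome and the factors of the large subunit precursor. A gene was measured where the platform annotation gave a probe set to that gene alone, with 1 probe set per gene, the one with the highest mean over the 15 arrays. This held for 19 of the 42 members, out of 13286 genes named in this way. The other 23 were not analysed here, among them both nucleolins, both fibrillarins, the pseudouridine synthase gene CBF5, NOP10, TOZ, SWA1, RID2 and PPAN. The NOP58 gene AT5G27120 was listed on a probe set shared with another gene.

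Seedlings grew on 10 µM NPA, which blocks polar auxin transport and keeps lateral roots from starting, and were used 3 days after germination. NAA roots had then been moved to 10 µM NAA, a synthetic auxin, for 2 h or 6 h. Naxillin roots had been moved to 50 µM naxillin, called a non-auxin-like lateral root inducer in the labels, for 2 h or 6 h. Roots before treatment had stayed on NPA (labelled mock). Each of the 5 groups held 3 Affymetrix ATH1 arrays from independent experiments, each array from 500 root sections with the meristems cut away. Roots moved to medium without a compound were not among the groups, so that compound, transfer and time cannot be told apart in a contrast with the roots before treatment. The doses of the compounds also differed.

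Ribosome production starts with transcription of the ribosomal RNA precursor by RNA polymerase I. Small nucleolar RNPs then modify it: box C/D particles, built on NOP56, NOP58 and fibrillarin, methylate it, and box H/ACA particles, with NHP2 and GAR1, convert uridines to pseudouridine. The processome releases the small subunit, while the Pescadillo complex and further factors shape the large one. Growing and dividing plant cells, such as those of a young lateral root primordium, need many new ribosomes.

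Values are log2 expression from RMA (robust multi-array average), so that a difference of 1 is a 2-fold change. They ran from 2.99 to 14.83, with array medians of 7.09 to 7.18 and correlations across probe sets of 0.984 to 0.9959 between arrays of a group. A gene was called where limma's adjusted p was under 0.05 over all 22746 probe sets; standard errors (SE) and 95% intervals are those of that fit. The number of arrays, 3 a group, limits the precision of every value. Of 9 root genes listed as a check, 2 were measured: PYK10, an abundant root glucosidase gene, stood at 14.31 to 14.50 in all group means, and the root hair expansin gene EXPA7 at 5.73 (NAA 6 h) to 8.44 (naxillin 2 h). None of 5 root meristem genes was measured. Arrays from bulk roots cannot tell more cells of a type from more RNA per cell.

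Most assembly factors were higher after 2 h of NAA. Of the 19 members 16 rose, 0 fell and 3 were not called, against 10.5% of all probe sets called higher and 15.3% lower. Where the RMA values were rescaled on poly-A spike-in controls, 17 members rose, against 12.5% of probe sets higher and 10.7% lower. This rescaling started from values already quantile normalised by RMA, so it is not independent of that step. On the log2 scale the median change was 1.03, against −0.03 over all probe sets. Every role with more than 1 measured gene had risen members. For box C/D these were both measured genes (6 listed), and for box H/ACA 2 of 3 (5 listed). All 3 of the Pescadillo complex had risen (3 listed), and all 5 measured for the large subunit precursor (11 listed). For the processome and small subunit 4 of 5 measured genes had risen (11 listed). At 17 members all 3 NAA arrays lay above all 3 arrays before treatment, as they did at 15.5% of all probe sets.

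The largest early change was in AT3G12860, a NOP56 gene of the box C/D core (chromosome 3, 4091567 to 4094195 in TAIR10.1). Its level was 8.05, 8.06 and 8.62 at 2 h of NAA, against 5.92, 5.69 and 5.68 before treatment. The groups were far apart, a rise of 2.48 (SE 0.22, 5.58-fold, adjusted p = 2.31e-06). NHP2 (AT5G08180), a box H/ACA core protein gene, had 9.53, 10.11 and 10.22, against 8.29, 8.17 and 8.53 before treatment. It rose by 1.62 (SE 0.24, adjusted p = 0.000235), and its lowest NAA array was 1 log2 unit above its highest array before treatment. NOC3 (AT1G79150), a factor that in yeast accompanies the large subunit precursor out of the nucleolus, had 8.59, 8.71 and 8.97, against 7.47, 6.63 and 7.55. It rose by 1.54 (SE 0.28, adjusted p = 0.00114); its dimmer second probe set gave 1.31 (adjusted p = 0.0163). EBP2 (AT3G22660), needed in yeast for large subunit rRNA, rose by 1.51 (adjusted p = 9.54e-05).

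The Pescadillo complex, which processes large subunit rRNA, moved within a narrow range. PES (AT5G14520), the gene of Pescadillo itself, had 10.46, 10.60 and 10.90 at 2 h of NAA, against 9.86, 9.38 and 9.72 before treatment. The groups did not overlap and the rise was 1.00 (SE 0.19, adjusted p = 0.00144). BOP1 (AT2G40360) rose by 0.90 and WDR12 (AT5G15550) by 1.01, both genes of the same complex. Close to them were RRS1 (AT2G37990), which helps to add 5S RNA to the large subunit, with 0.99, and NOB1 (AT5G41190), the nuclease that makes the final cut of small subunit rRNA, with 1.07.

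The members not called at 2 h of NAA numbered 3 and lay in 3 different roles. DIM1A (AT2G47420), which methylates adenosines of small subunit rRNA, had 9.73, 9.65 and 9.75 at 2 h, against 9.77, 9.94 and 9.86 before treatment. All NAA arrays were slightly below those before treatment (change −0.14, interval −0.33 to 0.04, adjusted p = 0.259). The second GAR1 gene, AT5G18180, had 4.98, 4.79 and 5.32, against 5.03, 4.90 and 4.78. These levels overlap and lie near the lower quartile of the arrays (4.70 to 4.81), not shown to be above background. PRH75 (AT5G62190), a nucleolar RNA helicase gene, had 10.72, 10.61 and 10.89, against 10.23, 10.48 and 10.51. Its groups did not overlap, but its change of 0.33 missed the threshold (adjusted p = 0.0731). It was called in 5 of 24 alternative fits. These were 3 other scalings: quantile normalisation again (adjusted p = 0.0499), median centring (0.0361) and poly-A scaling (0.04). The others were a fit with the replicate number as a block (0.013) and one without naxillin 6 h replicate 3 (0.0409).

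**Figure D1:**
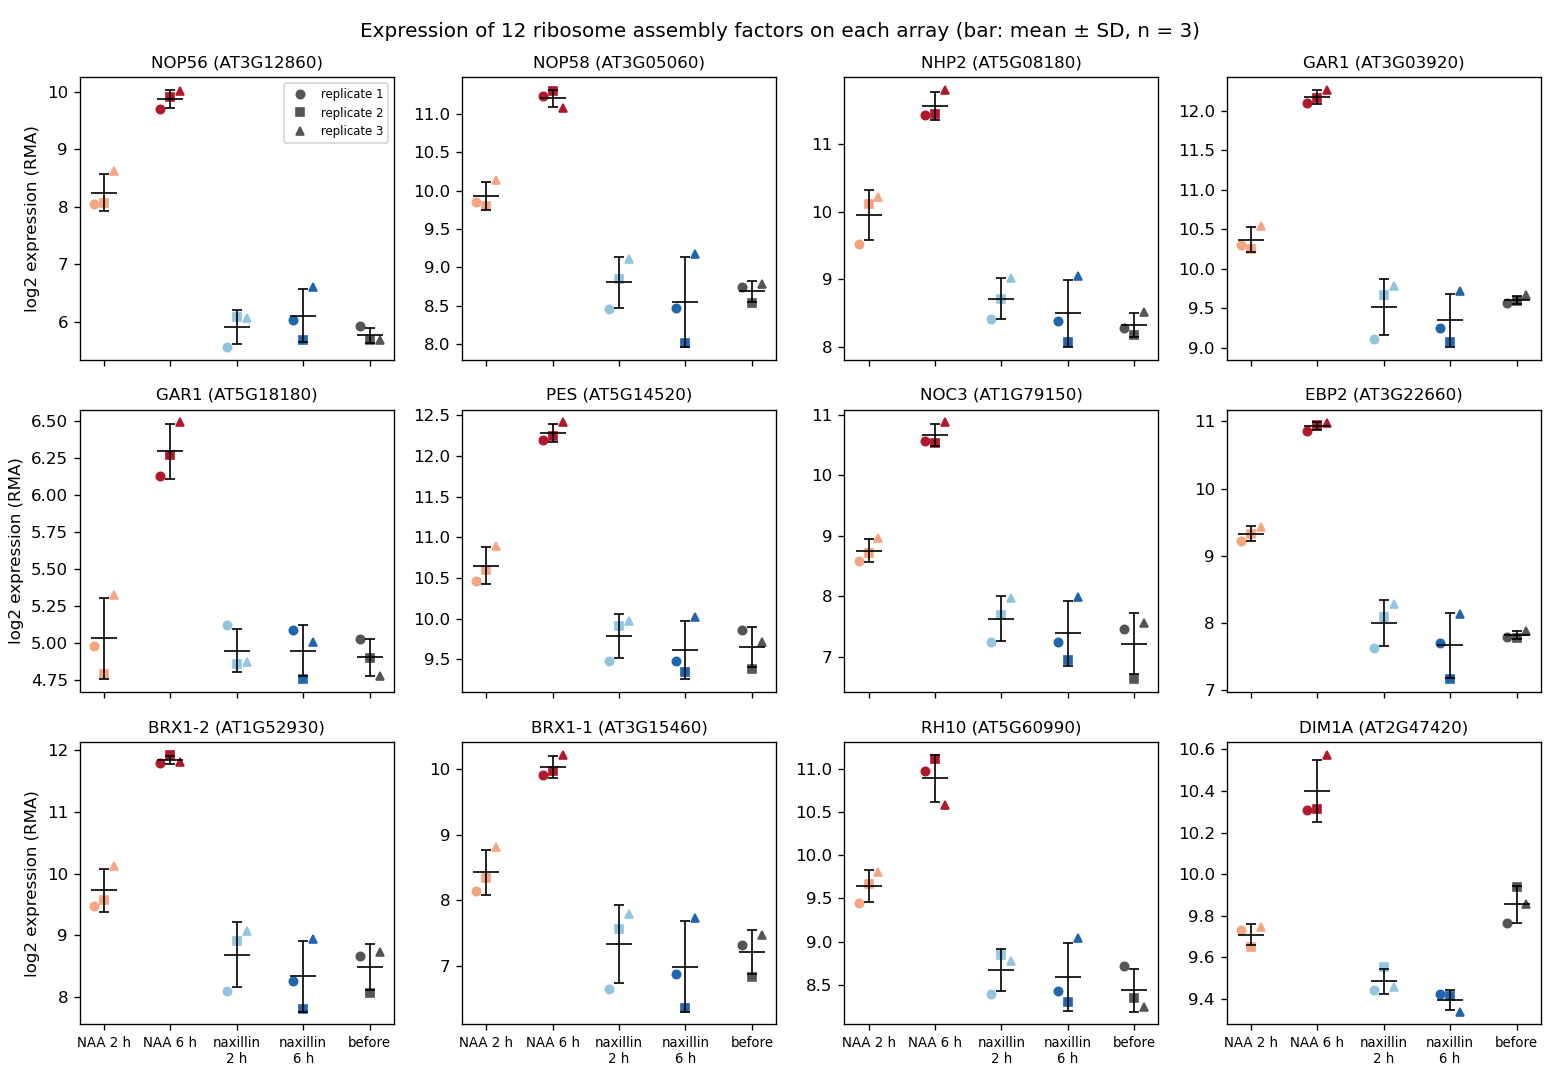
Log2 RMA expression of 12 of the 19 members on each of the 15 arrays, by group; symbols mark the replicate number and bars the mean ± SD (n = 3). NAA 6 h is the highest group in every panel; the naxillin groups lie near the roots before treatment, and DIM1A is lower in both of them.

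By 6 h of NAA all 19 measured members had risen and none fell, against 22.8% of all probe sets called higher and 29.4% lower. With poly-A scaling all 19 rose as well, against 43.8% of probe sets higher and 20.0% lower. The median change was 2.63 (6.19-fold), against −0.03 over all probe sets. Of the members 18 had risen at least 2-fold, against 2320 of all 22746 probe sets called and at least 2-fold higher. All 19 had groups that did not overlap, as did 26.1% of all probe sets in the same direction. Adjusted p ran from 3.08e-09 to 8.01e-05.

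AT3G12860 again had the largest change, with 9.69, 9.90 and 10.01 at 6 h of NAA, against 5.92, 5.69 and 5.68 before treatment. This was a rise of 4.1 (SE 0.22), or 17.2-fold. Its levels before treatment lay between the arrays' lower quartiles (4.70 to 4.81) and medians (7.09 to 7.18), and background was not tested. Its folds at 2 h and 6 h are differences of RMA values from that dim start. The NOP58 gene AT3G05060, of the same particle, had 11.22, 11.29 and 11.08, against 8.74, 8.54 and 8.78, a rise of 2.51 (SE 0.23). Its 95% interval, 2.01 to 3.01, lay below that of AT3G12860, 3.64 to 4.57; the difference between these genes was not tested. Among box H/ACA genes, NHP2 had 11.43, 11.45 and 11.80 and rose by 3.23 (SE 0.24).

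The factors of the large subunit precursor had the highest median of the roles with more than 2 genes, 3.10 (range 2.74 to 3.45). NOC3 had 10.58, 10.54 and 10.88 at 6 h, against 7.47, 6.63 and 7.55, a rise of 3.45 (SE 0.28). EBP2 had 10.86, 10.94 and 10.97, against 7.80, 7.77 and 7.89, and rose by 3.10 (SE 0.20). The 3 NAA arrays of EBP2 lay within 0.2 log2 units of each other and more than 2 above every array before treatment. The Pescadillo complex stayed close together at 2.41 (BOP1), 2.63 (PES) and 2.72 (WDR12).

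The processome and small subunit factors were the most uneven. AT5G11240, a gene of this role without a common name, had 9.88, 9.99 and 10.11 at 6 h, against 7.05, 6.91 and 6.97 before treatment, a rise of 3.02 (SE 0.30). RH10 (AT5G60990), a nucleolar RNA helicase gene, had 10.97, 11.11 and 10.58, against 8.72, 8.35 and 8.25, and rose by 2.45. IMP4 (AT1G63780), a protein of the U3 snoRNP in the processome, rose by 2.11, and NOB1 by 1.91. DIM1A had 10.31, 10.31 and 10.57, against 9.77, 9.94 and 9.86. All its NAA arrays were higher, but by 0.54 only (SE 0.08, adjusted p = 8.01e-05), the smallest change of the 19. PRH75 rose by 1.69 (SE 0.13).

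**Figure D2:**
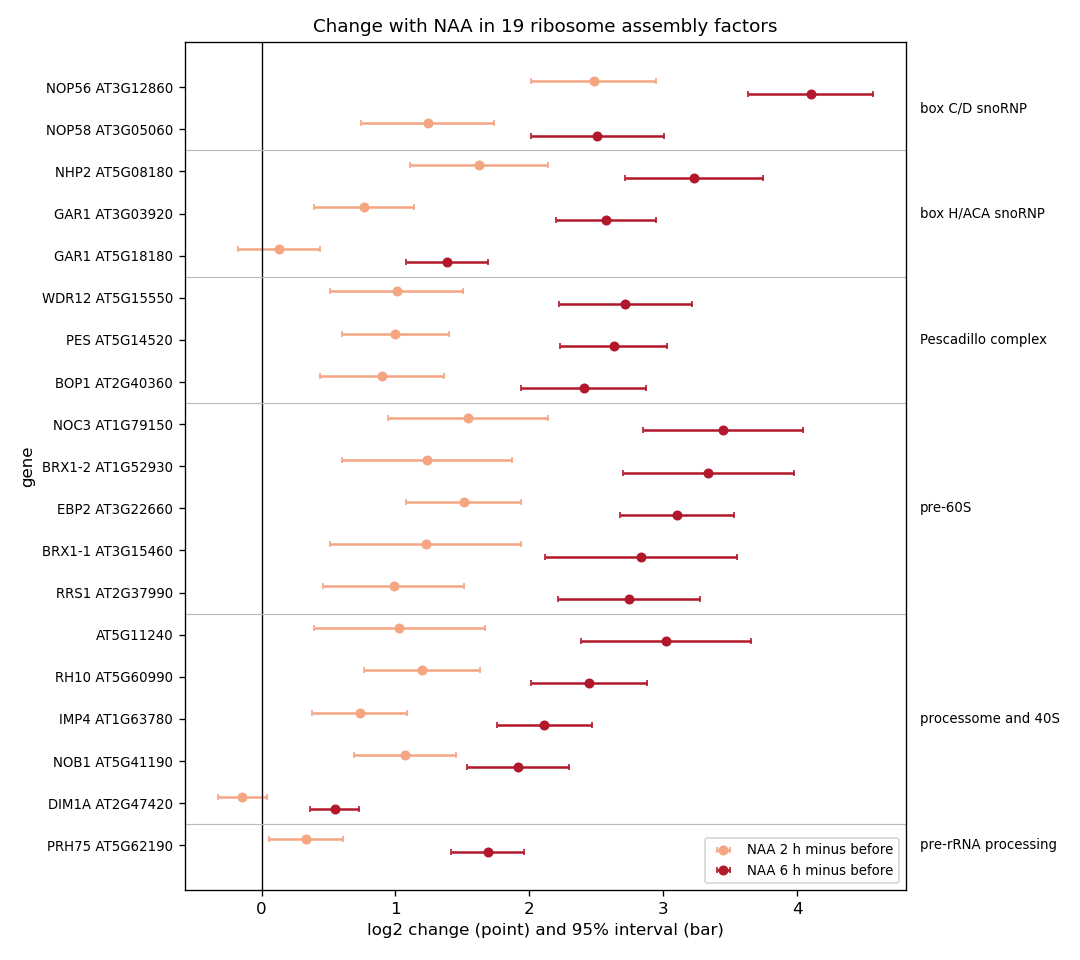
Change of each of the 19 members at 2 h (light) and 6 h (dark) of NAA against the roots before treatment, in log2 units with 95% intervals, arranged by role. All points at 6 h lie right of 0, from 0.54 (DIM1A) to 4.1 (AT3G12860); at 2 h the range is −0.14 to 2.48.

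The rise went on between 2 h and 6 h. All 19 members were called higher at 6 h than at 2 h of NAA, against 19.9% of all probe sets, with a median of 1.61, and at all 19 the groups did not overlap (24.6% of probe sets). With poly-A scaling 19 were called, against 32.3% of probe sets higher and 14.6% lower (21.6% lower without it). BRX1-2 (AT1G52930), a Brix-domain factor of the large subunit, changed most: 11.79, 11.91 and 11.80 at 6 h, against 9.48, 9.58 and 10.12 at 2 h (2.10, SE 0.30). AT5G11240 followed with 1.99 (SE 0.30). The smallest changes were those of DIM1A (0.69, SE 0.08) and NOB1 (0.84, SE 0.18). The 3 genes not called at 2 h were all called in this step: AT5G18180 at 1.26, PRH75 at 1.36 and DIM1A.

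Both genes were measured in 2 of 6 paralog pairs, GAR1 and BRX1. The GAR1 gene AT3G03920 had 12.10, 12.16 and 12.26 at 6 h of NAA, against 9.56, 9.58 and 9.66 before treatment, a rise of 2.57 (SE 0.17). AT5G18180 had 6.12, 6.26 and 6.49, against 5.03, 4.90 and 4.78, a rise of 1.39 (SE 0.14) that starts near the lower quartile and is a difference of RMA values, not a measured fold. The change at 6 h of NAA was larger by 1.19 in AT3G03920 (exact two-sided permutation test over 3 against 3 arrays, p = 0.1, the smallest possible). At 6 h of naxillin the changes differed by −0.305 (exact permutation p = 0.3). AT5G18180 was not shown to be above background before treatment or with naxillin. These values are therefore not a measured difference in response between the GAR1 genes.

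BRX1-1 (AT3G15460) had 9.92, 9.97 and 10.22 at 6 h of NAA, against 7.31, 6.82 and 7.47 before treatment, a rise of 2.83 (SE 0.33). BRX1-2 had 11.79, 11.91 and 11.80, against 8.68, 8.07 and 8.74, a rise of 3.34 (SE 0.30). The change was larger by 0.50 in BRX1-2 (exact two-sided permutation test over arrays, p = 0.1, the smallest that 3 against 3 arrays can give). At 6 h of naxillin the changes differed by 0.07 (exact permutation p = 0.5). Cross-hybridisation between paralogs was not tested.

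No assembly factor was called higher with naxillin. At 2 h limma called 0 of 19 members higher and 1 lower, where 4.40% and 6.16% of all probe sets were called (5.03% and 3.41% with poly-A scaling). The median change was 0.13, against −0.03 over all probe sets, and 1 of the 19 had an unadjusted p under 0.05. At 6 h 0 were called higher and 1 lower, where 0.580% and 0.382% of all probe sets were called (0.475% and 1.24% with poly-A scaling). The median was −0.12, against −0.03 over all probe sets, and 2 had an unadjusted p under 0.05. The upper bound of the 95% interval was under 1 log2 unit, a 2-fold rise, for 18 of the 19 members at 2 h, with NOC3 at 1.01, and for all 19 at 6 h. Smaller changes lie within these intervals.

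AT3G12860, which moved most with NAA, had 5.57, 6.09 and 6.06 at 2 h and 6.03, 5.69 and 6.60 at 6 h of naxillin, against 5.92, 5.69 and 5.68 before treatment. Both groups overlap the roots before treatment; the changes were 0.14 (interval −0.32 to 0.61) and 0.34 (−0.12 to 0.81). PES had 9.48, 9.90 and 9.97 at 2 h and 9.48, 9.34 and 10.02 at 6 h, against 9.86, 9.38 and 9.72, again overlapping. NHP2 had 8.42, 8.71 and 9.02 at 2 h and 8.39, 8.08 and 9.05 at 6 h, against 8.29, 8.17 and 8.53. Its change of 0.39 at 2 h (interval −0.13 to 0.90) was not called.

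DIM1A was the member called lower at both times. It had 9.45, 9.55 and 9.46 at 2 h of naxillin, against 9.77, 9.94 and 9.86 before treatment, a fall of 0.37 log2 units (SE 0.08, adjusted p = 0.0158). At 6 h it had 9.43, 9.42 and 9.34 and fell by 0.46 (SE 0.08, adjusted p = 0.022). Neither naxillin group overlapped the roots before treatment. The 2 h call was lost without naxillin 2 h replicate 3 (adjusted p = 0.0561) or before-treatment replicate 2 (0.069). The 6 h call was lost without any 1 of the 3 naxillin 6 h arrays (0.0636, 0.0592 and 0.0791 for replicates 1, 2 and 3), without before-treatment replicate 2 (0.108) or 3 (0.0816), and where only the arrays of the contrast were fitted (0.119). PRH75 stood next to it with −0.40 at 6 h (interval −0.68 to −0.13), but its adjusted p was 0.173.

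**Figure D3:**
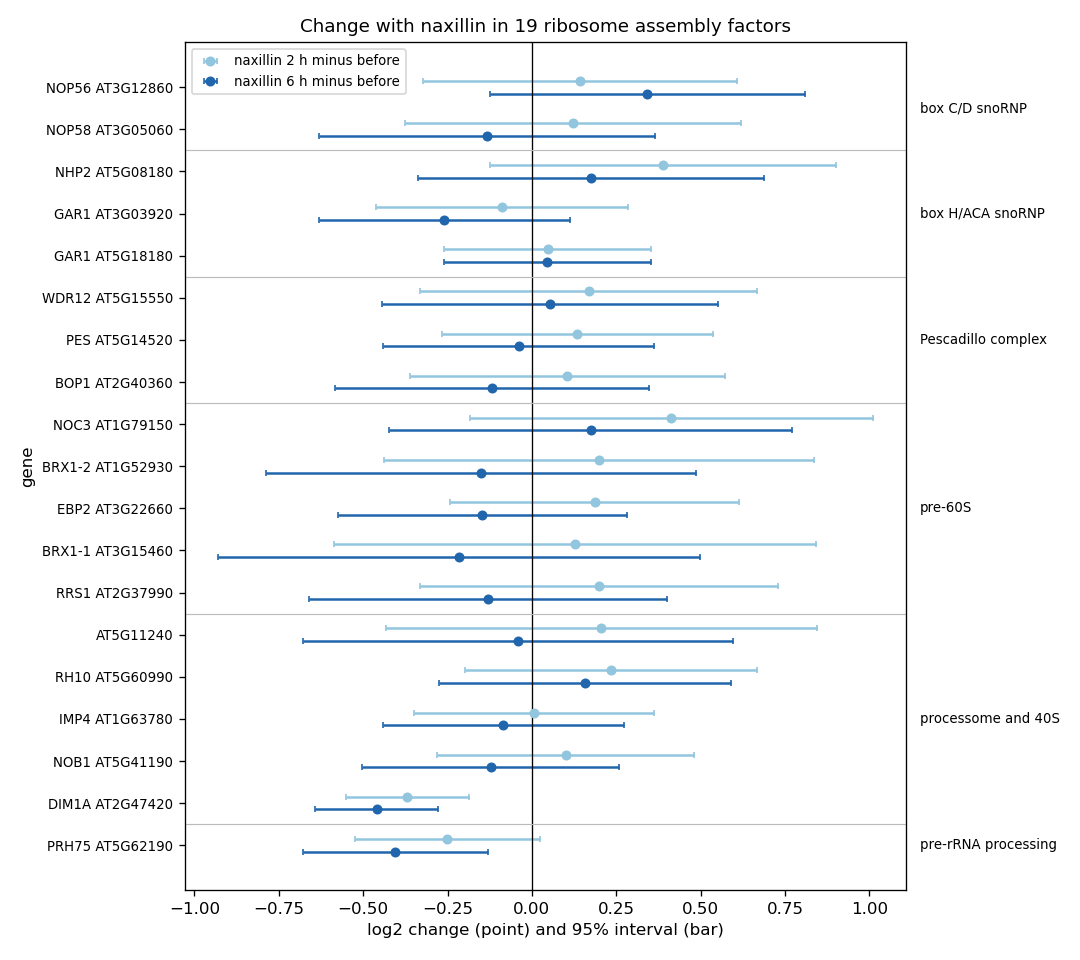
Change of each of the 19 members at 2 h (light) and 6 h (dark) of naxillin against the roots before treatment, in log2 units with 95% intervals, arranged by role. Most intervals span 0; DIM1A lies below it at both times, at −0.37 and −0.46, and PRH75 at 6 h.

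Between 2 h and 6 h of naxillin limma called 0 members in either direction, where 0.813% of all probe sets were called higher and 1.47% lower (0.347% and 3.84% with poly-A scaling). None of the 19 had an unadjusted p under 0.05, and changes ran from −0.35 to 0.20. The change of NAA between 2 h and 6 h minus that of naxillin was called higher for all 19 members, against 15.2% of probe sets higher and 15.1% lower (33.6% and 7.36% with poly-A scaling), with a median of 1.80 and a range of 0.78 (DIM1A) to 2.45 (BRX1-2).

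Set against NAA directly, naxillin roots held lower levels. At 2 h 16 of 19 members were called lower and 0 higher, against 8.68% of probe sets called lower, with a median of −0.87. At 18 members all 3 naxillin arrays lay below all 3 NAA arrays (14.4% of probe sets). AT3G12860 differed most, by −2.34 (SE 0.22, adjusted p = 5.58e-06). Not called were DIM1A (−0.22, adjusted p = 0.095), AT5G18180 (−0.08, adjusted p = 0.793) and AT5G11240 (−0.82, adjusted p = 0.0791). AT5G11240 was called in 2 of 24 alternative fits: the replicate block (adjusted p = 0.0259) and without naxillin 6 h replicate 3 (0.0214). Without NAA 2 h replicate 3 or without naxillin 2 h replicate 1, 10 of the 19 were called. Shares of all probe sets called in these fits were not counted. At 6 h all 19 were lower with naxillin, against 23.5% of probe sets lower and 27.2% higher (53.0% and 16.1% with poly-A scaling, where all 19 were lower too), with a median of −2.67 and a range of −3.76 (AT3G12860) to −1.005 (DIM1A). At all 19 the groups did not overlap (26.2% of probe sets). BRX1-2, second in size, had 8.27, 7.81 and 8.95 at 6 h of naxillin, against 11.79, 11.91 and 11.80 at 6 h of NAA (−3.49, SE 0.30).

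The members also moved together between arrays of 1 group, and so did other gene lists. For each array, members were averaged as deviations from each gene's mean over the 15 arrays. This average was 0.14, 0.26 and 0.55 at 2 h of NAA and 1.76, 1.83 and 1.92 at 6 h. It was −0.95, −0.51 and −0.40 at 2 h of naxillin, −0.89, −1.17 and −0.34 at 6 h, and −0.66, −0.88 and −0.65 before treatment (replicates 1, 2 and 3 in each case). Replicate 3 was the highest in all 5 groups: at 18 of 19 members at 2 h of NAA, 14 at 6 h, 14 at 2 h of naxillin, 17 at 6 h, and 11 before treatment. Before treatment, replicates 1 and 3 were nearly level. Replicate 3 was also highest in all 5 groups for the further assembly factors and cell division genes listed below. For the RNA polymerase I genes it was highest except before treatment. The share of all probe sets with replicate 3 highest was not counted. The spread was widest at 6 h of naxillin, with a median SD over members of 0.47, against 0.15 before treatment. With replicate 3 left out of every group, 16 members were called higher at 2 h of NAA and 19 at 6 h, and none was called with naxillin at either time. The share of all probe sets called in that fit was not counted.

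**Figure D4:**
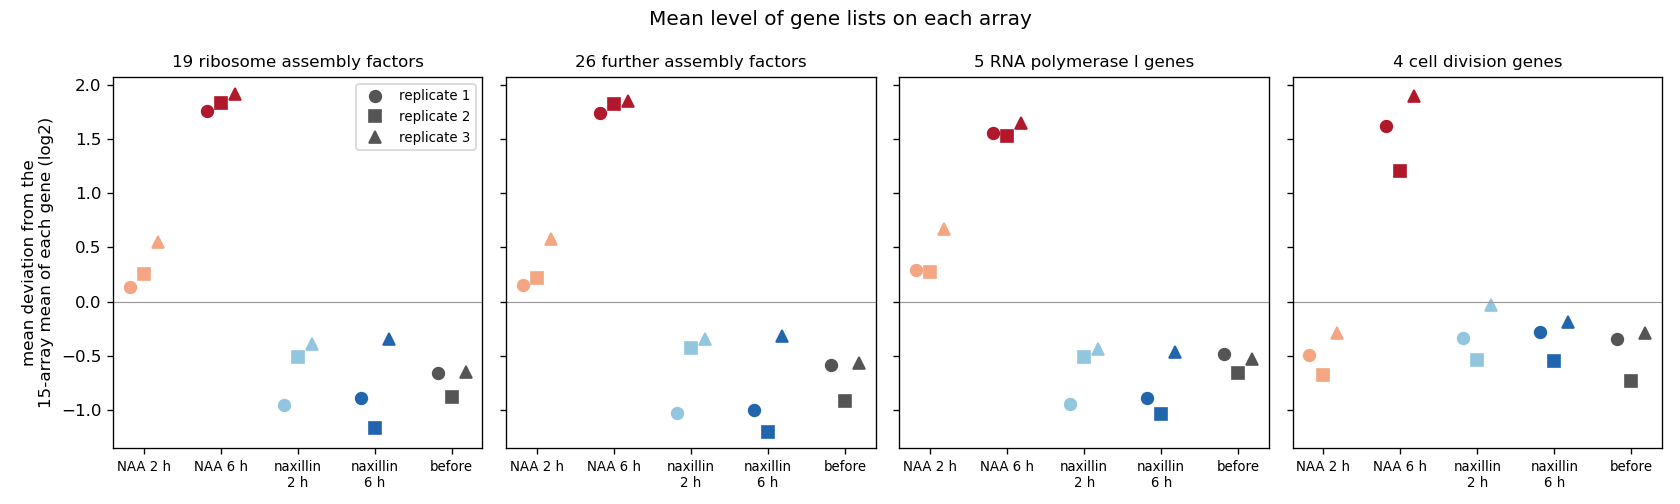
Mean deviation, in log2 units, from each gene's 15-array mean for the 19 members, 26 further assembly factors, 5 RNA polymerase I genes and 4 cell division genes; each point is 1 array and symbols mark the replicate number. The first 3 panels already stand above the roots before treatment at 2 h of NAA, the cell division genes at 6 h of NAA.

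Other genes of the pathway were counted from lists by locus tag, chosen with earlier results of these data known. Their counts are therefore not independent evidence. Of 43 further assembly factors listed, 26 were measured. Of these 26, 22 were called higher at 2 h of NAA (median 1.14) and all 26 at 6 h (median 2.56), and none fell. Before treatment NOG1-2 (AT1G10300) at 3.94 and the UTP14 gene AT5G08600 at 4.26 lay below the arrays' lower quartiles (4.70 to 4.81). They were not shown to be above background there, and stood at 5.26 and 7.35 at 6 h of NAA. Of all probe sets 10.5% and 22.8% were called higher, and 15.3% and 29.4% lower. UTP21 (AT4G04940) and UTP7 (AT3G10530), both processome genes, changed most at 6 h, by 3.81 and 3.62. All 5 measured RNA polymerase I genes rose at both times, with medians of 1.06 and 2.16; RPA49 (AT3G13940) rose by 2.67 at 6 h and NRPA1 (AT3G57660), the gene of the largest subunit, by 2.55. With naxillin none of the 26 was called at either time, with 1 unadjusted p under 0.05 at 2 h and 0 at 6 h. Of the 5, RRN3 (AT2G34750), whose product brings polymerase I to its promoter, was called lower at 2 h (−0.43, adjusted p = 0.0286), and none at 6 h. Of all probe sets naxillin had 4.40% called higher and 6.16% lower at 2 h, and 0.580% and 0.382% at 6 h.

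Cell division genes were called at 6 h of NAA and not at 2 h; whether their timing differs from that of the members was not tested. None of the 8 division markers chosen first was measured; of 20 added once the annotation had been seen, 4 were, namely MCM7, a subunit of the replication helicase, and the Aurora kinase genes AUR1, AUR2 and AUR3. At 2 h of NAA 0 of these 4 were called (median −0.12) and at 6 h all 4 were higher (median 2.07), against 10.5% and 22.8% of all probe sets called higher. With naxillin none of the 4 was called, and none had an unadjusted p under 0.05. Of 7 shoot genes listed, 3 were measured. All 3 fell at both times of NAA, with medians of −0.95 and −2.10. There 15.3% and 29.4% of all probe sets were called lower. At 2 h of naxillin 2 of the 3 fell, where 6.16% of all probe sets were called lower. At 6 h of naxillin 0 of the 3 were called, where 0.382% of all probe sets were called lower. The part of either list in the members' changes was not tested.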

How the data were processed

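The deposited values were log2 expression per probe set on Affymetrix ATH1 arrays, made by the authors with RMA in affy 1.36.0, per the submitters' processing notes. RMA corrects background, normalises quantiles and summarises probe sets, so a change shared by most transcripts is removed. Per the labels' protocols, 2 µg of total RNA with bacterial spike-ins was amplified to biotin-labelled cRNA. The table held 22810 probe sets; 64 controls were left out. Of the rest, 13513 named 1 gene, 503 several and 8730 none; Entrez identifiers gave RefSeq locus tags (TAIR10.1) for 13436.

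The limma package (version 3.58.1, under R 4.3.3) estimated 1 mean per group from the 15 arrays together (10 residual degrees of freedom; two-sided moderated test; Benjamini-Hochberg over 22746 probe sets); the fit was tested on simulated data. Members and lists were chosen with earlier results of these data known; per-array values are given for paralogs, 1 or more genes per role and the extreme changes. A ribosomal protein list and promoter motifs were planned and not analysed here.

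Alternatives were fits to the arrays of a contrast, a replicate block, a trended robust prior, other scalings, dim probe sets (mean under 6) left out, stricter thresholds, the mean of a gene's probe sets, and each array left out. Deviations of same-numbered arrays all correlated over 0.1 between NAA 6 h and before treatment, NAA 6 h and 2 h, and naxillin and NAA at 6 h (0.122 to 0.331); in these the replicate block changed no member call. Leaving out replicate 3 of every group was chosen after seeing the data.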

Additional observations from a re-analysis of the deposited data

Results flagged for a closer look

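The change between 2 h and 6 h differed between the compounds for every measured member, by a test of the difference itself (NAA minus naxillin, in log2 units). It was 1.42 for AT3G12860 (NOP56) and 1.52 for AT3G05060 (NOP58). Among box H/ACA genes it was 1.82 for NHP2, 1.98 for the GAR1 gene AT3G03920 and 1.26 for AT5G18180. In the Pescadillo complex it was 1.80 for PES, 1.73 for BOP1 and 1.82 for WDR12. Among factors of the large subunit precursor it was 1.93 for EBP2, 2.09 for RRS1, 1.95 for BRX1-1, 2.45 for BRX1-2 and 2.15 for NOC3. Of the processome and small subunit factors, IMP4 had 1.47, NOB1 1.06, DIM1A 0.78, RH10 1.32 and AT5G11240 2.24. PRH75 had 1.51. Adjusted p in limma lay between 4.37e-05 and 0.00605. Of all probe sets 15.2% were called higher and 15.1% lower in this test (33.6% and 7.36% with poly-A scaling). AT5G18180 was not shown to be above background at 2 h of NAA or with naxillin.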

How the results depend on the processing

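Counts of members called higher at 6 h of NAA against before treatment, at 6 h against 2 h of NAA and in the test of the compounds' time courses were 19, and so was the count called lower with naxillin against NAA at 6 h. They stayed at 19 with each array left out and were 18 without dim probe sets, which removes AT5G18180. The count called higher at 2 h of NAA was 14 to 17 with 1 array left out (16 with all), and 11 at least 2-fold (812 of all 22746 probe sets). For naxillin against NAA at 2 h, 16 were called lower, 10 to 17 with 1 array left out, 10 at an adjusted p under 0.01 and 7 at least 2-fold. Shares of all probe sets with arrays left out, at the stricter p, or at least 2-fold lower were not counted. Nor were the shares without dim probe sets, with the replicate block, or with only the arrays of a contrast. The 1 member called lower at 2 h of naxillin was 0 or 1 with 1 array left out, and 0 at an adjusted p under 0.01, at least 2-fold and without replicate 3 of all groups. At 6 h of naxillin it was 0 or 1 with 1 array left out, and 0 in the same 3 settings and with only the arrays of the contrast. The replicate block gave 2 there, adding PRH75 (adjusted p = 0.037). It gave 17 at 2 h of NAA, adding PRH75 (adjusted p = 0.013), and 17 for naxillin against NAA at 2 h, adding AT5G11240 (adjusted p = 0.0259); it changed no other of these counts. Numbers were not taken as pairs in these 3 contrasts, where 1 same-numbered correlation in each was under 0.1. For replicates 1, 2 and 3 these correlations were −0.0074, 0.57 and 0.37 between naxillin 6 h and before treatment. They were −0.15, 0.16 and 0.41 between NAA 2 h and before treatment, and 0.57, 0.0853 and 0.53 between naxillin and NAA at 2 h. Over all groups, deviations of same-numbered arrays correlated between −0.23 and 0.63, over 0.1 in 23 of 30 cases. Their median was 0.22, against −0.14 for different numbers, and 11 of 15 arrays correlated best with their own number. Scaling on poly-A spike-ins moved the median of all probe sets by 0.24 at 6 h of NAA by −0.31 for naxillin against NAA at 6 h, by 0.16 and −0.13 between 2 h and 6 h of NAA and of naxillin, and by 0.29 for the test of the time courses, so that changes are relative to the array's median; all members kept their direction at 6 h of NAA and for naxillin against NAA at 6 h. No call reversed. The BRX1 difference at 6 h of NAA was 0.43 to 0.61 with 1 array left out. Why calls were lost was not tested. The promoter motif alternative was not run.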
